A study of Rattus norvegicus with 6 samples.

Results

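The genes described here make the storage and surface lipids of skin: the wax alcohol acyltransferases Awat1 and Awat2, the fatty acyl-CoA reductases Far1 and Far2, the diacylglycerol acyltransferases Dgat1 and Dgat2, and the monoacylglycerol acyltransferases Mogat1 and Mogat2. They were taken by symbol from a table of 18825 genes, and all 8 were listed in it. Messenger RNA was sequenced from dorsal skin wound tissue of male Sprague–Dawley rats with 3 libraries in each of 2 groups. In the DST-MNs group, full-thickness wounds received microneedles that held spheroids of dental pulp stem cells regulated with TGF-β3, a growth factor, and the polyamine spermidine. In the control group the wounds were left untreated, with no empty microneedle group among the samples. All rats of both groups were diabetic after a diet high in fat and sucrose and streptozotocin, a toxin of pancreatic beta cells. The labels call the libraries of a group biological replicates and give no age, no day of collection and no species of origin for the stem cells. The 8 genes were chosen by symbol with their read counts and TPM (transcript abundance scaled by transcript length and library) in DST-MNs and control wounds already known, so those values are given as a description, with no p-value for a single member.

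Wax esters are made in successive steps. A fatty acyl-CoA reductase (FAR) turns an acyl-CoA into a fatty alcohol, and a wax synthase (AWAT) joins that alcohol to another acyl-CoA. Triglycerides are closed by the DGAT enzymes, which add the last acyl chain to diacylglycerol, and the MOGAT enzymes can supply that diacylglycerol from monoacylglycerol. AWAT1, AWAT2, MOGAT1, MOGAT2 and DGAT2 belong to the same protein family, the DGAT2 family, while DGAT1 is an unrelated enzyme for the same reaction. In the skin of mice and humans the wax synthases are known from the sebaceous gland, whose lipid-filled cells secrete sebum, and FAR1 also feeds the synthesis of ether lipids in many tissues.

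The members lie on 5 chromosomes in the RefSeq annotation of the assembly GRCr8, with Awat1 and Awat2 on chromosome X, Dgat2, Mogat2 and Far1 on 1, Far2 on 4, Dgat1 on 7 and Mogat1 on 9. Dgat2 and Mogat2 are direct neighbours, with 0 annotated protein-coding genes between them. Between Awat2 and Awat1 lie 4 protein-coding genes, and the one next to Awat1 is Dgat2l6, a further gene of the DGAT2 family. Promoter sequences from RefSeq (GRCr8, 250 bases before to 50 after the annotated start) were at hand for 5 of the 8 members. Those of both wax synthases and both reductases are shown, because each pair of related genes can be compared by sequence beside its values. Capitals mark matches, on either strand, to the TATA box (TATAAA), the CCAAT box (CCAAT), the GC box (GGGCGG), a nuclear receptor half-site (AGGTCA) and an E-box (CACGTG).
Awat1, chrX:69708036-69708335, plus strand: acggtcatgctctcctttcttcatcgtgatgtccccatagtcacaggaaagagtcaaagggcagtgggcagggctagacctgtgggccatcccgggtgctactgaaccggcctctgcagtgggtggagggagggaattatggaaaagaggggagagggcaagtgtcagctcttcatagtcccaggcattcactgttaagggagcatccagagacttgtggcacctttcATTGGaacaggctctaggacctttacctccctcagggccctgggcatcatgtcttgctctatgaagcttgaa
Awat2, chrX:69530615-69530914, minus strand: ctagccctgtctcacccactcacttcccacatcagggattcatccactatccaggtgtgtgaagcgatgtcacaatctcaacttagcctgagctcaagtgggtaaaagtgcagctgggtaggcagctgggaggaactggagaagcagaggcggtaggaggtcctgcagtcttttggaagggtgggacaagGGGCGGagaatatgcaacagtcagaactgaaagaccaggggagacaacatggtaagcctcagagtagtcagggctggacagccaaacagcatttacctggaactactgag
Far1, chr1:177079080-177079379, plus strand: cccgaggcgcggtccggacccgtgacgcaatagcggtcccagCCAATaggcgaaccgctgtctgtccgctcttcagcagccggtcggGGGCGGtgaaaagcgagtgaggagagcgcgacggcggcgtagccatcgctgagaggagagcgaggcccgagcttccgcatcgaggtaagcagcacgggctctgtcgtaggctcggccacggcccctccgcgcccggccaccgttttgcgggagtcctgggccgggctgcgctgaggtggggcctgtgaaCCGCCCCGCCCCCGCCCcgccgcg
Far2, chr4:182705249-182705548, plus strand: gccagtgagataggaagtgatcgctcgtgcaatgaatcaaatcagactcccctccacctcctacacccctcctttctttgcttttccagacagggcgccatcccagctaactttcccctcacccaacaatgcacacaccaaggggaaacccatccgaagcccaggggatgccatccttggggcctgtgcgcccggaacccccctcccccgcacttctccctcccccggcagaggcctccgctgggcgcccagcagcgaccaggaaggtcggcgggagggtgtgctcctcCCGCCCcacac

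The Awat1 window held 1 CCAAT box, read on the minus strand 22 bases before the start, and the Awat2 window 1 GC box 60 bases before it. A CCAAT box occurs in 37.5% and a GC box in 33.1% of all 33469 promoters of this length, so neither match sets these windows apart. The Far1 window held 4 GC boxes and 1 CCAAT box, and the Far2 window 1 GC box, 39 bases after the start. Matches to TATAAA (14.2% of all promoters), AGGTCA (16.2%) and CACGTG (6.42%) were in none of the 4 windows, and some of the GC boxes of Far1 overlap or adjoin. The windows differed in CG dinucleotides, with 4 in Awat1, 3 in Awat2, 14 in Far2 and 41 in Far1, against a median of 7 over all promoters. Of all promoters, 97.2% had fewer CG dinucleotides than Far1, 66.5% fewer than Far2, 30.7% fewer than Awat1 and 22.3% fewer than Awat2.

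Library totals ran from 12545206 to 13818548 estimated counts. Of 14427 genes with enough counts to test, 112 differed between DST-MNs and control wounds (quasi-likelihood test of edgeR with Benjamini-Hochberg adjustment, adjusted p under 0.05), which is 0.776%, or 0.658% higher and 0.118% lower. Of the 8 members, 7 had enough counts and 2 of them, Awat1 and Awat2, were past that threshold, both higher after treatment. Nothing is read from this count, since the members were chosen with the contrast known. Awat1, Awat2 and Far2 passed the filter through the treated libraries. The calls rested on each treated library. Without DST-MNs 1, 2 or 3 in turn edgeR's test called 0 members, beside 0.158%, 0.232% and 0.096% of all genes. With all libraries, 5 of the 7 members were at an unadjusted p under 0.05, beside 2406 of the 14427 genes. Nothing is read from that count either. DESeq2 on all libraries called 4 members, adding Far2 and Mogat2, beside 6.65% of all genes. Without control 3, Awat1 and Far2 passed and Awat2 did not, beside 0.36% of all genes. In counts scaled to library size with normalisation factors (CPM) the groups did not overlap for 5 of the 7, beside 22.9% of all genes, and 4 of these lay above control, beside 12.9%. The median log2 change was 0.33 over the 7 members and 0.0044 over all genes tested. In bulk tissue, more cells of a type and more RNA per cell cannot be told apart.

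**Figure D1:**
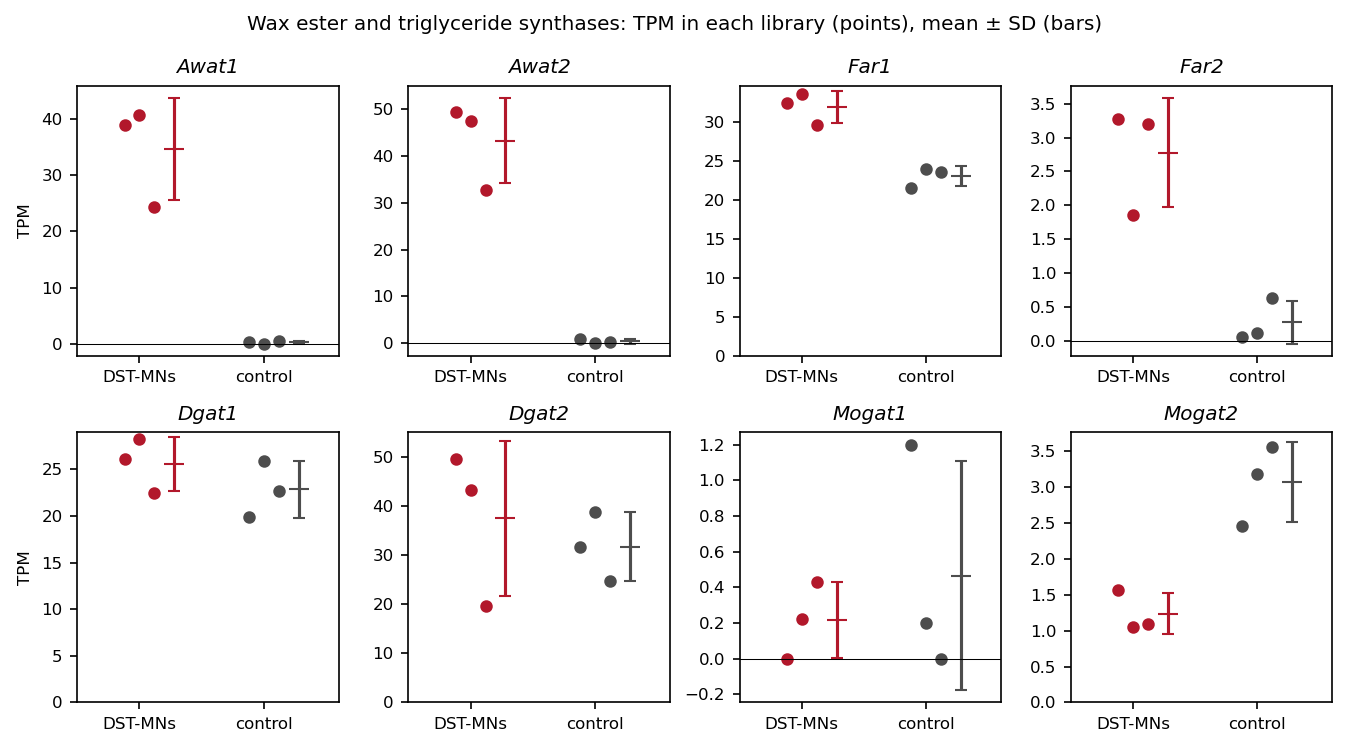
Level of each of the 8 members in TPM (vertical axes, 1 scale per gene) in the 3 DST-MNs and the 3 control libraries, as points in order of replicate number, with the mean ± SD beside them. Awat1 and Awat2 stand between 24.29 and 49.23 TPM in DST-MNs libraries and at 1.03 TPM or less in control libraries, while the ranges of Dgat1, Dgat2 and Mogat1 overlap.

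Awat1 (gene ID 679520), which joins fatty alcohols and acyl chains into wax esters, had 407, 416 and 255 counts in DST-MNs 1, 2 and 3, against 3, 0 and 5 counts in control 1, 2 and 3. Per length this was 38.93, 40.79 and 24.29 TPM in DST-MNs wounds, against 0.26, 0 and 0.48 TPM in control wounds. Every treated library lay far above every control, and DST-MNs 3 was the lowest of the treated. The difference was 6.92 on the log2 scale (SE 0.62, n = 3 each). Pooled over a group, 1078 counts stood against 8, a ratio of 127 after scaling with an exact 95% counting interval of 64.5 to 296, which covers counting error only. The size of the change rested on few control counts and was 6.35 without control 2 and 7.70 without control 3.

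Awat2 (302425), a wax synthase that in mice and humans also esterifies retinol, had 352, 330 and 236 counts in DST-MNs wounds, against 8, 0 and 3 counts in control wounds. These were 49.23, 47.44 and 32.72 TPM after treatment, against 1.03, 0 and 0.42 TPM in controls. As for Awat1, DST-MNs 3 was lowest of the treated and control 2 had no count at all. The highest control was control 1 for Awat2 and control 3 for Awat1. The log2 change was 6.25 (SE 0.70), and the pooled ratio of 918 to 11 counts was 78.9 (95% counting interval 43.9 to 159). Without control 1, which holds 8 of the 11 control counts, the log2 change was 7.47, and it was 5.68 without control 2. Awat2 stood above Awat1 in TPM in each treated library, by a factor of 1.26, 1.16 and 1.35. Over the treated libraries the levels averaged 43.1 ± 9.06 TPM for Awat2 and 34.7 ± 9.04 TPM for Awat1 (SD, n = 3).

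Far2 (500368), the reductase that in mice prefers saturated acyl chains, had 107, 59 and 104 counts in DST-MNs wounds, against 2, 4 and 20 counts in control wounds. It stood at 3.28, 1.85 and 3.20 TPM after treatment, against 0.06, 0.12 and 0.63 TPM in controls. The groups did not overlap, and the lowest treated library was DST-MNs 2, not DST-MNs 3 as for the wax synthases. The log2 change was 3.28 (SE 0.77), or 4.77 without control 3, which holds 20 of the 26 control counts, 2.81 without control 1 and 2.93 without control 2.

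Far1 (293173), the reductase that also serves ether lipid synthesis, had 1464, 1471 and 1323 counts in DST-MNs wounds, against 1024, 1150 and 1041 counts in control wounds. In TPM this was 32.55, 33.71 and 29.69 after treatment, against 21.59, 24.04 and 23.66 in controls. The groups were apart and the spread within each was small, at 104 ± 3.62 CPM in DST-MNs and 83.1 ± 5.41 CPM in control wounds. The log2 change was 0.33 (SE 0.10), and 0.29 to 0.38 with 1 library left out. Scaling to total counts, or working in TPM, moved the median log2 change of all genes from 0.0044 to between 0.12 and 0.13, and Far1 stayed above that median, at up to 0.47.

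Dgat1 (84497), a triglyceride synthase of the endoplasmic reticulum, had 422, 444 and 364 counts in DST-MNs wounds, against 345, 436 and 365 counts in control wounds. Its TPM values, 26.09, 28.27 and 22.50 after treatment and 19.89, 25.93 and 22.74 in controls, overlapped. The log2 change was 0.02 (SE 0.14), and its sign turned with 1 library left out, at -0.053 without control 1.

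Dgat2 (252900), the triglyceride synthase of the same family as the wax synthases, had 921, 703 and 331 counts in DST-MNs wounds, against 572, 679 and 415 counts in control wounds. At 49.74, 43.34 and 19.74 TPM after treatment and 31.79, 38.83 and 24.75 TPM in controls, the treated libraries held both the highest and the lowest value. The log2 change was 0.13 (SE 0.34), 0.42 without DST-MNs 3 and -0.16 without DST-MNs 1. In DST-MNs 3, where Dgat2 was lowest of all libraries, Awat1 and Awat2 were lowest among the treated libraries only, and stood above every control.

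Mogat2 (681211), which makes diacylglycerol and is best known from fat absorption in the intestine, was the member lower after treatment. It had 23, 15 and 16 counts in DST-MNs wounds, against 39, 49 and 52 counts in control wounds. In TPM it stood at 1.57, 1.05 and 1.09 after treatment, against 2.46, 3.19 and 3.56 in controls. The groups did not overlap at these low counts, and the log2 change was -1.45 (SE 0.29), between -1.62 and -1.33 with 1 library left out. Its chromosomal neighbour Dgat2 overlapped between the groups.

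Mogat1 (363261), a related enzyme known from mouse liver and fat, had 0, 1 and 2 counts in DST-MNs wounds, against 6, 1 and 0 counts in control wounds. That was too few to test, and the groups overlapped, so no difference was detectable at this depth.

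**Figure D2:**
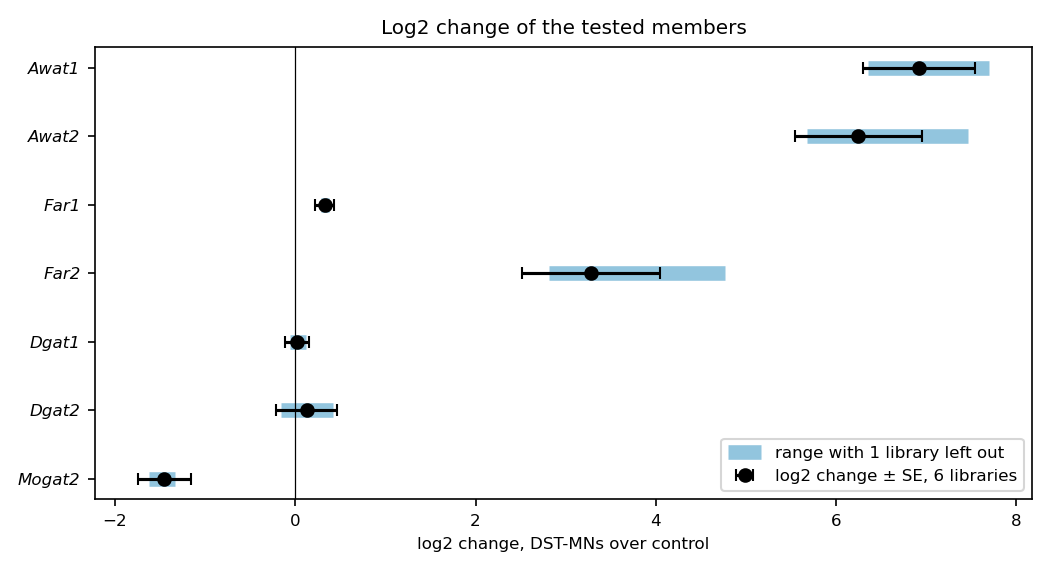
Log2 change of the 7 members with enough counts (horizontal axis, DST-MNs over control), with black points and bars for the estimate ± SE and blue bands for the range with 1 library left out. Awat1, Awat2 and Far2 lie at 3.28 or more, Mogat2 at -1.45, and the bands of Dgat1 and Dgat2 cross 0.

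The order of the members by level also differed between the groups. In DST-MNs wounds the mean levels ran from Awat2 at 43.1 TPM over Dgat2 (37.6), Awat1 (34.7), Far1 (32.0), Dgat1 (25.6), Far2 (2.78) and Mogat2 (1.24) to Mogat1 (0.217). The ranges of Awat2, Dgat2, Awat1 and Far1 overlapped from neighbour to neighbour, and each later step was apart. In control wounds Dgat2 was highest at 31.8 TPM and lay apart from Far1 at 23.1 TPM, which overlapped with Dgat1 at 22.9 TPM. Mogat2 followed at 3.07 TPM, and Awat2 (0.483), Mogat1 (0.467), Far2 (0.270) and Awat1 (0.247) overlapped at the bottom.

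As a share of the summed TPM of the 5 DGAT2-family members, the wax synthases took 63.2%, 66.4% and 72.8% in DST-MNs libraries, against 3.51%, 0% and 3.08% in control libraries. Dgat2 took 31.2% ± 5.37 in DST-MNs and 87.7% ± 3.77 in control wounds (SD, n = 3 each), and Mogat2 took 1.10% ± 0.302 and 8.81% ± 2.96. The sum itself was 117 ± 33.6 TPM in DST-MNs and 36.1 ± 6.53 TPM in control wounds. For the reductases, Far2 made up 9.15%, 5.202% and 9.73% of their sum in DST-MNs libraries, against 0.277%, 0.497% and 2.59% in controls. Far1 was thus the main reductase transcript in every library. The ratio of Dgat2 to Dgat1 was 1.44 ± 0.521 in DST-MNs and 1.39 ± 0.270 in control wounds, and ranged from 0.877 in DST-MNs 3 to 1.91 in DST-MNs 1.

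**Figure D3:**
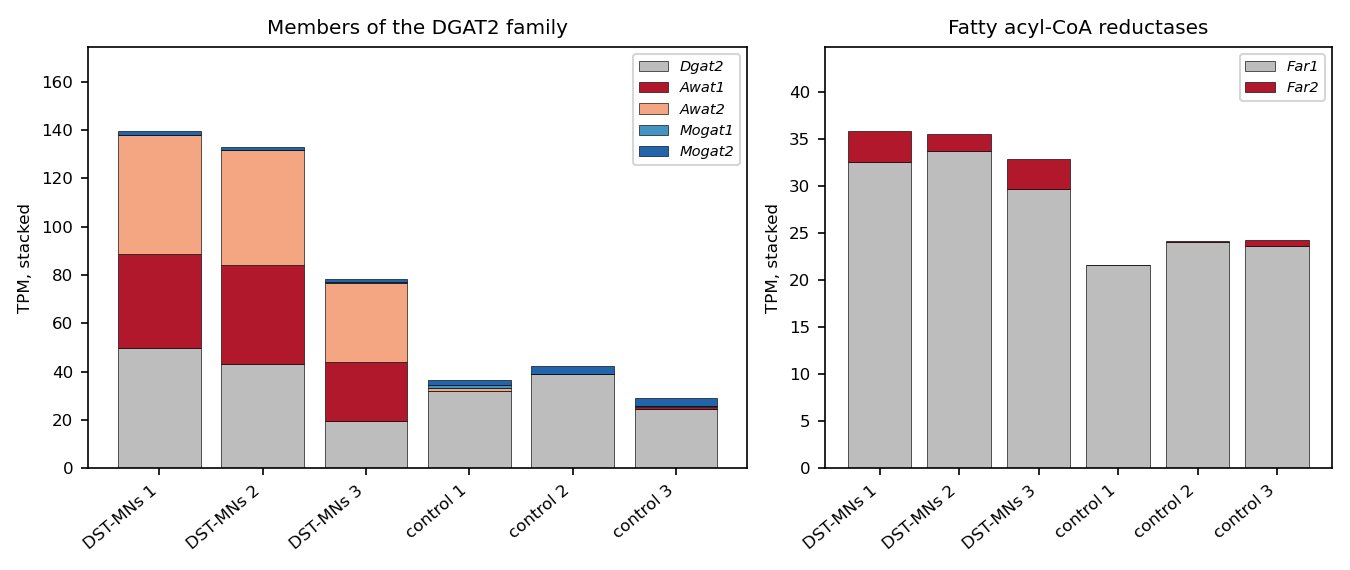
Stacked levels in TPM (vertical axes) in each library of the 5 members of the DGAT2 family (left) and of the 2 reductases (right). In DST-MNs libraries Awat1 and Awat2 make up 63.2% to 72.8% of the family, in control libraries Dgat2 makes up 84.7% to 91.97%, and Far1 is the larger part of the reductases throughout.

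The deposited counts and FPKM values (fragments scaled by transcript length and library size) together imply the transcript length that the authors' counting assigned to a gene, which depends on the mixture of its transcripts. For Dgat2 this length was 1843, 1646 and 1681 bases in DST-MNs 1, 2 and 3, against 1657, 1666 and 1684 bases in control 1, 2 and 3. DST-MNs 1 stood apart from the other 5 libraries, which lay close together. Ranges were taken on the log2 scale after subtracting each library's median deviation over genes. The range of Dgat2 over libraries, 11.5%, was wider than for 91.97% of the 8381 genes with enough signal, whose median was 1.73%. On the same scale the lengths of Dgat1 and Far1 varied by 1.05% and 4.13%. The TPM of Dgat2 in DST-MNs 1 is therefore lower for its counts than in the other libraries.

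Genes with the most similar pattern were sought among 13244 genes by the root mean square difference of log2 CPM over the 6 libraries, each gene centred on its own mean. Closest to Awat1 were Elovl4 (difference 0.35), an elongase of very long fatty acids, Acsm1 (0.40), an acyl-CoA synthetase, and Psapl1 (0.42), and Awat2 came next at 0.49. The genes nearest to Awat2 were Asprv1 (0.45), a protease of the epidermis, then Awat1 and Acsm1 (0.52). Far2 was closest to Rdh12 (0.42), a retinol dehydrogenase, Pnpla3 (0.48), a patatin family lipase, and Tgm5 (0.56), a transglutaminase of the epidermis. It was 1.68 from Awat1. For Mogat2 the nearest were Tubb3 (0.19), Akr1b8 (0.19) and Enpep (0.21), all lower after treatment, with log2 changes of -1.64, -1.17 and -1.35. Dgat1 was nearest to Fam219a (0.033), Surf6 (0.044) and Ovca2 (0.045), Dgat2 to Igsf3 (0.12), Prex1 (0.14) and Mb21d2 (0.14), and Far1 to Gatb (0.016), Tbc1d24 (0.030) and Trmt44 (0.035). Distances are small for genes that vary little and cannot be compared between members. They take in the difference between the groups, so a gene of large change can lie near only genes that change alike. Elovl4, Acsm1 and Psapl1 had log2 changes of 6.61, 6.75 and 6.51, beside 6.92 for Awat1. Shared regulation was not tested.

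Further genes around these enzymes were counted by 4 lists. Over all genes, edgeR's test called 0.776% and DESeq2 6.65%, and 2406 of 14427 were at an unadjusted p under 0.05. Of the other steps of glycerolipid synthesis, 1 of 14 tested genes rose and 0 fell, with 3 at an unadjusted p under 0.05 and 2 called by DESeq2, at a median log2 change of -0.15. The gene that rose was Agpat3 (294324), which acylates lysophospholipids, at 34.2 ± 2.82 TPM in DST-MNs and 6.10 ± 1.26 TPM in control wounds (log2 change 2.35, SE 0.21, with an adjusted p of 0.00982 in edgeR's quasi-likelihood test). Its counts were 1711, 1544 and 1834 after treatment, against 389, 238 and 322 in controls. It lost its call without DST-MNs 3 (adjusted p = 0.0609). The other AGPAT genes, Agpat1, Agpat2, Agpat4 and Agpat5, had log2 changes between -0.32 and -0.09 and did not pass. The other gene called by DESeq2 was Gpd1, with a log2 change of 2.02 (SE 0.57, adjusted p of 0.168 in edgeR's quasi-likelihood test). It stood at 41.59, 18.54 and 11.85 TPM in DST-MNs wounds, against 8.06, 2.25 and 5.25 TPM in control wounds.

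Among other acyltransferases of neutral lipids, 1 of 4 tested genes of 6 listed rose. It was Dgat2l6 (678749), the neighbour of Awat1, with 36, 19 and 24 counts in DST-MNs wounds, against 0, 1 and 1 counts in control wounds (log2 change 4.98, SE 0.65, with an adjusted p of 0.0282 in edgeR's quasi-likelihood test). The pooled ratio of 79 to 2 counts was 37.4 (95% counting interval 10.01 to 314). Dgat2l6 passed the count filter through the treated libraries, and was not tested where at least 10 counts were required in every library. It kept its call without control 1 (adjusted p = 0.0324) and lost it without any 1 of the other libraries, with adjusted p up to 0.154. It also lost its call in the fit with the replicate number as a block (0.0693) and in limma on log2(TPM + 0.1) (0.0614). Of the genes between Awat2 and Dgat2l6, Igbp1 overlapped between the groups at a log2 change of 0.08 (SE 0.18, adjusted p = 0.863), and Otud6a had 3 counts in DST-MNs wounds and 0 in control wounds. Of the 4 acyltransferases tested, 2 were at an unadjusted p under 0.05, the other being Soat1, which esterifies cholesterol. Soat1 stood at 51.48, 36.22 and 20.98 TPM in DST-MNs wounds, against 19.96, 16.31 and 18.24 TPM in control wounds (log2 change 0.82, SE 0.28, adjusted p of 0.220), and its groups overlapped in CPM but not in TPM. The family gene Mogat3 was at 0 counts in every library, which allows up to 3 counts.

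The synthesis of ether lipids is the pathway that FAR1 feeds with alcohols. Of 8 genes of it, 0 passed edgeR's test, 2 were at an unadjusted p under 0.05, and DESeq2 and voom each called Selenoi. Selenoi, an ethanolamine phosphotransferase, stood at 23.0 ± 2.58 TPM in DST-MNs and 9.51 ± 2.27 TPM in control wounds (log2 change 1.13, SE 0.18, adjusted p = 0.0523). Selenoi passed edgeR's test with upper-quartile factors (adjusted p of 0.0442), with scaling to total counts (0.031) and without control 1 (0.0336), and over all alternatives of that test its adjusted p ran up to 0.197. Gnpat, the first enzyme of the pathway, reached a log2 change of 0.39 (SE 0.14, adjusted p = 0.238) and the choline and ethanolamine phosphotransferase Cept1 one of -0.15 (SE 0.09, adjusted p = 0.474).

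Among 13 neutral lipid hydrolases and their regulators, 3 rose and 0 fell in edgeR's test, 7 were at an unadjusted p under 0.05, and DESeq2 called 5. Pnpla5 (300108), a lipase of the patatin family, had 266, 187 and 292 counts in DST-MNs wounds, against 0, 0 and 4 in controls. The pooled ratio was 176, with a 95% counting interval of 68.5 to 648 that covers counting error only. Its log2 change was 7.34 (SE 0.82, adjusted p = 0.0198 in edgeR's test). Pnpla3 (362972) had 78, 46 and 69 counts after treatment, against 4, 3 and 9 in controls (log2 change 3.48, SE 0.48, adjusted p = 0.0343). Pnpla5 and Pnpla3 passed the count filter through the treated libraries, and were not tested where at least 10 counts were required in every library. In limma on log2(TPM + 0.1) Pnpla3 lost its call (adjusted p of 0.0621). Ces1d (113902), a carboxylesterase that hydrolyses triglycerides, reached 6.27 on the log2 scale (SE 0.88, adjusted p = 0.0371). Many of its counts were fractional, as for genes that share reads with close copies, so its level is uncertain, and voom and the replicate block did not call it. Pnpla3 passed without control 1 or control 3, Pnpla5 without control 1 or control 3 and Ces1d without control 1, and with any other library left out the adjusted p ran from 0.0579 to 0.155. Of the lipases known from fat cells, Pnpla2, Lipe and Mgll overlapped between the groups, with log2 changes of -0.12, 0.04 and -0.31. Lpl, the lipoprotein lipase, did not overlap, at 287.07, 143.44 and 125.15 TPM in DST-MNs wounds, against 104.95, 71.68 and 80.63 TPM in control wounds (log2 change 0.94, SE 0.32, adjusted p of 0.221). Lipa, the lysosomal acid lipase, did not overlap either, at 132.96, 113.64 and 93.34 TPM in DST-MNs wounds, against 60.76, 65.28 and 62.40 TPM in control wounds (log2 change 0.69, SE 0.13, adjusted p of 0.0796). DESeq2 called both, and edgeR's test called neither.

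**Figure D4:**
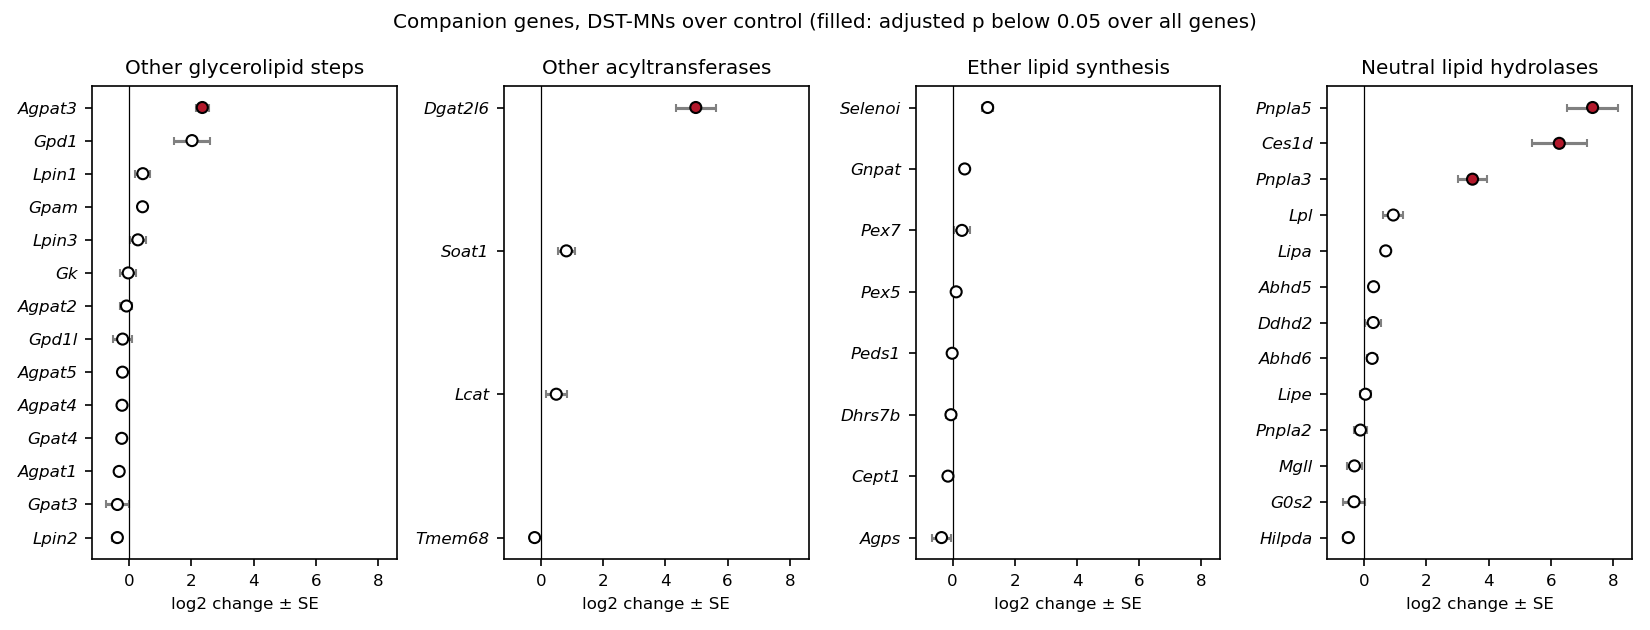
Log2 change ± SE (horizontal axes, DST-MNs over control) of the tested genes of 4 lists of neighbouring enzymes, filled where the adjusted p over all genes was below 0.05. Agpat3, Dgat2l6, Pnpla5, Ces1d and Pnpla3 are filled, and most other genes lie near 0.

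Marker lists of cell types in the wound differed in how they stood beside the wax synthases. The sums of the hair follicle, skeletal muscle and macrophage lists overlapped between the groups. Beside the counts of all marker lists stand 0.776% of all genes called by edgeR's test and 6.65% by DESeq2. At an unadjusted p under 0.05 stood 2406 of 14427 genes. The 11 sebaceous gland markers, which hold no member, summed to 589, 503 and 573 TPM in DST-MNs 1, 2 and 3, against 72.6, 48.1 and 67.9 TPM in control 1, 2 and 3. Of 10 tested, 2 rose, the elongase Elovl4 (log2 change 6.61, SE 0.38, adjusted p of 0.0038) and the keratin Krt79 of the gland's duct (5.46, SE 0.43, adjusted p of 0.00776 in edgeR's quasi-likelihood test), and 0 fell, while 6 were at an unadjusted p under 0.05 and DESeq2 called 6. Krt79 lost its call without DST-MNs 3. Elovl4, with 14, 9 and 29 counts in control 1, 2 and 3, was not tested where at least 10 counts were required in every library. The groups overlapped for 4 of the 10, Fads2, Pparg, Gata6 and Prdm1, with log2 changes of 0.46, 0.28, -0.14 and -0.14. The summed TPM of Awat1 and Awat2, set against that separate sum, came to 15.0%, 17.5% and 9.95% of its size in DST-MNs wounds, against 1.78%, 0% and 1.32% in control wounds. In control 2, most of the 48.1 TPM of markers came from overlapping ones, Fads2 (14.33), Pparg (14.14), Prdm1 (6.98) and Gata6 (6.59). Elovl4, Elovl3 and Krt79 had log2 changes of 6.61, 6.42 and 5.46, beside 6.92 for Awat1 and 6.25 for Awat2. Mc5r, Scd and Cidea changed less, Cidea least at 2.90. A rise of the wax synthases beyond gland content was not tested. Scd, a desaturase of the same list, was at 19.00, 1.02 and 4.43 TPM in control 1, 2 and 3, and control 2 had no count of either wax synthase.

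Keratinocyte markers summed to 4166, 303 and 1282 TPM in DST-MNs libraries, against 182, 13.6 and 170 TPM in controls, and the involucrin gene Ivl was at 0 in all controls. DST-MNs 2 had the fewest keratinocyte transcripts of the treated libraries and as much Awat1 and Awat2 (88.2 TPM summed) as DST-MNs 1 (88.2 TPM). In edgeR's test 0 of 9 keratinocyte genes passed, 9 were at an unadjusted p under 0.05, and DESeq2 called 6. Hair follicle markers summed to 1013, 4.73 and 8.92 TPM in the DST-MNs libraries, against 15.8, 2.45 and 5.31 TPM in controls, with Krt25, Krt27 and Krt73 at 0 in DST-MNs 2 and 3. Of the hair genes 0 of 6 tested passed edgeR's test, 2 were at an unadjusted p under 0.05, and DESeq2 called 2.

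Markers of adipocytes, a cell type where Dgat1 and Dgat2 also act, summed to 2811 to 3106 TPM in DST-MNs libraries and 2188 to 2728 TPM in controls, mostly from Fabp4 and Cfd. The defining adipocyte gene Adipoq stood at 130.51, 7.41 and 18.00 TPM in DST-MNs wounds, against 35.93, 8.55 and 20.72 TPM in control wounds, highest in DST-MNs 1 as was Dgat2. Of 10 tested adipocyte genes 0 passed edgeR's test, 1 was at an unadjusted p under 0.05, and DESeq2 called Aqp7. All 10 had a positive log2 change, at a median of 0.85, beside 7286 of 14427 genes. Aqp7 stood at 5.93, 5.91 and 11.59 TPM in DST-MNs wounds, against 2.99, 2.08 and 2.44 TPM in control wounds. Its log2 change was 1.58 (SE 0.45), and it was the 1 gene of the 10 whose groups did not overlap in CPM, beside 22.9% of all genes. Skeletal muscle markers summed to 3211 to 4521 TPM in DST-MNs libraries and to 4622, 22.0 and 215 TPM in control 1, 2 and 3, so muscle transcripts were unequal between control libraries. Of 7 muscle genes 0 passed edgeR's test, 0 were at an unadjusted p under 0.05, and DESeq2 called 0. Macrophage markers summed to 3268 to 5797 TPM in DST-MNs and 2734 to 3863 TPM in control libraries, where 0 of 6 tested genes passed edgeR's test, 2 were at an unadjusted p under 0.05, and DESeq2 called Trem2. The part of sebaceous, keratinocyte, hair follicle, adipocyte, muscle and macrophage content in the values of the members was not tested.

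**Figure D5:**
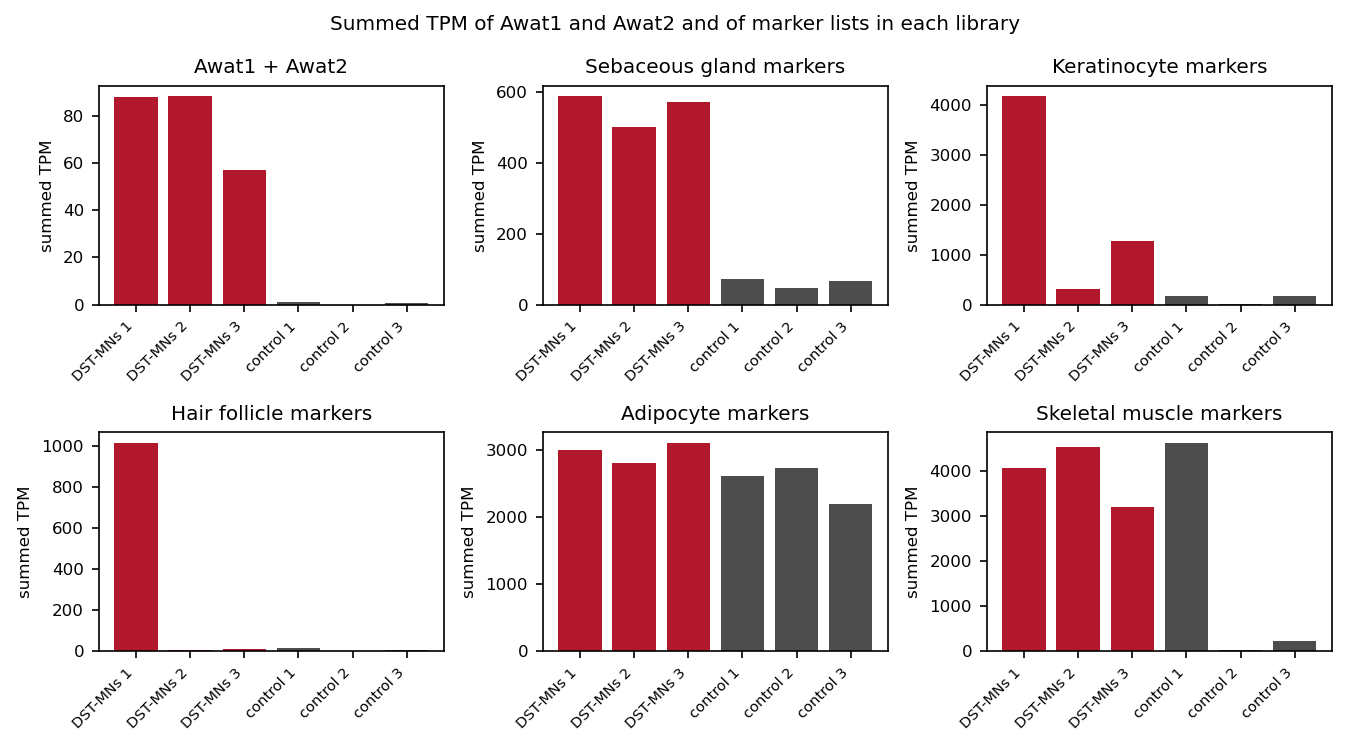
Summed TPM (vertical axes, 1 scale per panel) of Awat1 and Awat2 and of 5 lists of cell type markers in each library, DST-MNs in red and control in grey. Sebaceous gland markers are at 503 to 589 TPM in DST-MNs and at 48.1 to 72.6 TPM in control libraries, while hair follicle markers stand at 1013 TPM in DST-MNs 1 and at 15.8 TPM or less in the other 5.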

How the data were processed

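Messenger RNA libraries from 6 wounds were read in pairs with a DNBSEQ-T7 sequencer, as the labels' protocols state. The authors deposited 1 table per gene and library, whose estimated counts are unscaled read counts, per the file headers, 90.6% to 91.4% of them whole. The TPM and FPKM values deposited by the authors are scaled by length and library, per the file headers. The authors' normalised counts, a signal made by dividing each library by 1 factor, were not used. The submitters' processing notes name the build mRatBN7.2. Aligner, counter, strand setting and the splitting of reads between similar genes were not given in the sources used here.

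Groups were taken from titles and columns from library names. Counts were rounded, filtered with filterByExpr (minimum count 10) and tested over 14427 genes with edgeR 4.0.16 (TMM factors, quasi-likelihood test, Benjamini-Hochberg adjustment) in R 4.3.3. An SE is the log2 change divided by the square root of F. The test was checked on simulated counts. Alternatives were other scaling factors (DESeq2 1.42.0 size factors, upper quartile, total counts), other filters, the Wald test of DESeq2, limma 3.58.1 (voom, and log2 of TPM plus 1 or 0.1 where mean TPM reached 1), a replicate block, and each library left out. The members, lists and tests were chosen with earlier results of these data known. Named are the members, the genes of each list past the threshold and the 3 genes closest in pattern to each member. For the ether lipid list, where none passed, the 3 genes with the smallest p are named. The same was planned for marker lists where none passed, and was not followed there. Genes named from those lists, and others named beside the rest, were chosen after their values were seen. Of 109 list entries 106 were matched by symbol and 3 by synonym, where Scd1 led to Scd and was counted once. Names and promoters came from RefSeq on GRCr8, another assembly than that of the table. Figures were drawn with matplotlib 3.10.9.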

Additional observations from a re-analysis of the deposited data

How the results depend on the processing

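The count of members past the threshold was 2 in the main test and 4 with the Wald test of DESeq2. It was 0 where at least 10 counts were required in every library, a filter that removed Awat1, Awat2 and Far2. With 1 library left out it ran from 0 to 2. The count over all genes was 112, with 1062 in DESeq2 (675 higher, 387 lower), 38 with at least 10 counts in every library, and 14 to 402 with 1 library left out, where 402 was without control 1 and 14 without DST-MNs 3. Of the companion genes 5 passed, against 9 in DESeq2, 2 with at least 10 counts in every library, 3 on log2(TPM + 0.1), and 0 to 6 with 1 library left out. With 1 library left out, the log2 change of Dgat1 ran from -0.053 to 0.12 (below 0 without control 1, control 3 or DST-MNs 2) and that of Dgat2 from -0.16 to 0.42 (below 0 without control 3 or DST-MNs 1), while that of Cept1 turned to 0.0007 on both TPM scales. The cause was not tested. On log2(TPM + 1) the changes of Awat1, Awat2 and Far2 shrank to 4.82, 4.93 and 1.58 by construction, since the pseudocount exceeds most of their control levels.

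Replicate numbers are shared by the groups. Deviations of same-numbered libraries correlated at -0.025, 0.101 and 0.109 over genes, and those of differently numbered libraries at -0.219 to 0.104. With 3 libraries a group these values cannot decide whether the numbers pair the libraries, and the main test assumed no pairing. With the replicate number as a block, 123 genes, 2 members and 3 companion genes passed. With 3 libraries a group and 0 to 20 control counts, the size of the changes of Awat1, Awat2 and Far2 is known only roughly.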
